A study of Saccharomyces cerevisiae with 12 samples.

Results

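The 38 genes described here encode proteins that build the yeast cell wall, together with the enzymes that make and remodel its glucan and chitin. They were taken by name from a table of expected counts with 7127 rows of yeast identifiers, and every one of the 38 was found there and had enough counts to be tested. The list names genes by the function of their products, without a threshold, and it was drawn up with results of these data in view. Counts over the list therefore describe these genes and no others.

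The cells were Saccharomyces cerevisiae of strain BY4742, a laboratory strain of mating type alpha, labelled WT in every group. They were grown in SD, a synthetic dextrose medium, with 4 combinations of glucose and KCl: 0.5% glucose with 1 mM KCl, 0.5% glucose with 7 mM KCl, 2% glucose with 1 mM KCl, and 2% glucose with 7 mM KCl. These are written below as the 0.5%/1 mM, 0.5%/7 mM, 2%/1 mM and 2%/7 mM media, each with 3 biological replicates. The study asked how restriction of potassium compares with restriction of glucose in yeast, in connection with chronological lifespan. The growth stage at harvest was not stated, and all libraries carry 1 batch label.

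The yeast wall is a network of beta-1,3-glucan, to which beta-1,6-glucan, chitin and mannoproteins are attached. Many mannoproteins reach the wall through a glycosylphosphatidylinositol (GPI) anchor, whereas the PIR proteins are bound to beta-1,3-glucan directly. Glucanosyltransferases, transglycosylases and glucanases lengthen, branch and cross-link the polymers as the bud grows, and many wall genes are transcribed at particular points of the cell cycle or when the wall is damaged.

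Libraries held 5634205 to 7036345 counts at yeast rows. Levels are given as CPM, the usual library-scaled count, over yeast counts with TMM scaling, and a comparison is given as a log2 fold change ± its standard error (SE) from edgeR. A gene is said to rise or fall where the Benjamini-Hochberg adjusted p of edgeR's quasi-likelihood test, over all 6127 genes tested, was under 0.05. These p-values measure the spread between the labelled biological replicates. One library stood apart: in the 0.5%/7 mM medium, replicate 2 correlated with replicates 1 and 3 with r of 0.884 and 0.892 over all genes, while those 2 had 0.989 with each other and pairs within the other media 0.967 to 0.994. Several results that rest on it are also given without it. Others, among them those of HSP150, KRE6 and CCW14 in that medium, are given with all libraries only. Of the strain's marker genes, LEU2, LYS2 and URA3 were at 0 in every library, and HIS3 was at 3.7 to 177 CPM. Of genes specific to alpha cells, STE3 was at 23.2 to 206 CPM and MF(ALPHA)1 at 5.26 to 448 CPM. Of genes specific to a cells, MFA1 and MFA2 were at 0 in every library, AGA2 at 1.2 CPM or less, STE2 at 7.18 to 17.7, BAR1 at 4.1 to 12 and STE6 at 44.9 to 134 CPM. Ribosomal RNA genes took a share of yeast counts of 2.29% to 2.62% in the 0.5%/1 mM, 1.23% to 1.45% in the 0.5%/7 mM, 0.989% to 2.03% in the 2%/1 mM and 0.794% to 1.02% in the 2%/7 mM medium. Its part in the results below was not tested.

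Because so many of these genes are known targets of regulators that act at fixed DNA sites, the 500 bases before each start codon were read from the R64 genome and searched on both strands. The motif CGCGAAA is bound by SBF, the Swi4-Swi6 factor that activates genes at the start of the cell cycle. The motif of Rlm1, the factor switched on by the wall integrity kinase Slt2, was searched by its published consensus. An SBF match lay upstream of 13 of the 38 genes (34.2%), against 5.83% of all 5987 promoters, and an Rlm1 match upstream of 8 (21.1%), against 1.82%. The SBF sites shown are a choice from the 13 genes with a match. CIS3 and SRL1, which also had large rises with 1 mM potassium, had no SBF match in this window. Capitals mark the match, each line reads 5′ to 3′ on the strand given in brackets, and 20 bases flank the match on each side.
SCW4, chrVII:1050365-1050411 (+), 433 bases before the start codon: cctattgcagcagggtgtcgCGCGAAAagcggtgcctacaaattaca
SCW10, chrXIII:880608-880654 (-), 402 bases before: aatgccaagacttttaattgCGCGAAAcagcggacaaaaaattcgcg
TOS6, chrXIV:65324-65370 (+), 400 bases before: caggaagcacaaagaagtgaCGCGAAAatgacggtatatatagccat
CCW12, chrXII:370365-370411 (+), 293 bases before: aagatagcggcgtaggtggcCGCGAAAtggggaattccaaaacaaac
GAS1, chrXIII:886626-886672 (-), 357 bases before: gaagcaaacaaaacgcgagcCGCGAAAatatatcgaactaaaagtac
UTR2, chrV:77796-77842 (+), 237 bases before: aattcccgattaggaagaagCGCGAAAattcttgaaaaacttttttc
CWP1, chrXI:260653-260699 (+), 459 bases before: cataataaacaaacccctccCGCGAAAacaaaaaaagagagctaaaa

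The Rlm1 matches shown next belong to CWP1, the one gene that holds both motifs, and to the stationary-phase protein SED1. PST1 and PIR3, also shown, were highest in the medium with both nutrients in supply.
CWP1, chrXI:260726-260775 (+), 386 bases before: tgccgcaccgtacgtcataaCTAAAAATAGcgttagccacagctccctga
SED1, chrIV:600293-600342 (+), 480 bases before: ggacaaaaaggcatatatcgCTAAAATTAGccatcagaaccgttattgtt
PST1, chrIV:563202-563251 (+), 305 bases before: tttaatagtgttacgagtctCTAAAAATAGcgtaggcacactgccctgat
PIR3, chrXI:144101-144150 (+), 280 bases before: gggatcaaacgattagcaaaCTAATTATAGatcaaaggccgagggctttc

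Most of the wall genes, and their summed counts, were lowest in cells that had little glucose and ample potassium. The 38 genes took 4.80% ± 0.853 of yeast counts in the 0.5%/1 mM medium, 1.68% ± 0.071 in the 0.5%/7 mM medium, 3.74% ± 0.472 in the 2%/1 mM medium and 3.93% ± 0.108 in the 2%/7 mM medium (SD, n = 3 each). SED1 weighed most in these sums, with means of 22900, 5594, 8148 and 14052 CPM in the same order. The small SD of the 0.5%/7 mM medium does not mean that its libraries were alike. In its replicate 2 TIP1 was at 6004 CPM, against 113 and 102 in replicates 1 and 3. PST1 was at 51.7 CPM there, against 590 and 516. Of the 38, 24 had their lowest mean in the 0.5%/7 mM medium, which was the lowest for 26.3% of all genes tested. The highest mean of 21 lay in the 0.5%/1 mM medium, against 27.8% of all genes. In a bulk sample, fewer cells at a given stage of growth and less RNA per cell cannot be told apart.

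**Figure D1:**
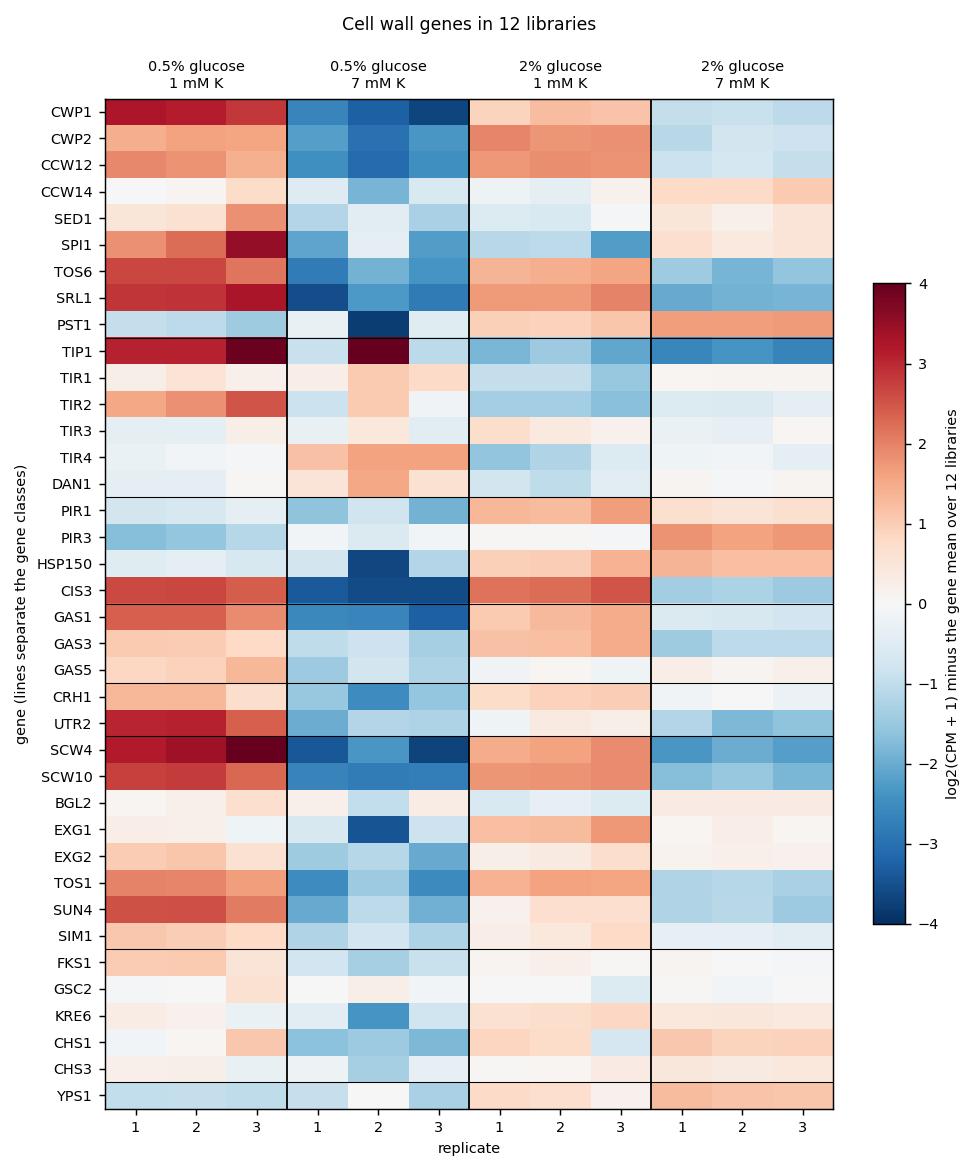
Levels of the 38 wall genes in the 12 libraries, as log2(CPM + 1) minus each gene's mean over the libraries, with colours saturating at -4 and 4; columns are replicates 1 to 3 of each medium and horizontal lines separate the gene classes. The 3 libraries of the 0.5%/7 mM medium are blue for most genes, and replicate 2 of that medium differs from its partners at TIP1, PST1, HSP150 and EXG1.

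Potassium restriction means 1 mM against 7 mM potassium. At 0.5% glucose it was accompanied by a rise of 25 wall genes and a fall of 3, so that 73.7% were called, against 48.4% of all genes tested (23.5% higher and 24.9% lower). The median log2 fold change of the 38 was 2.03, against -0.02 over all genes. At 2% glucose 16 rose and 5 fell, or 55.3% against 28.1% of all genes (13.1% higher and 15% lower), with a median of 0.49 against -0.00. The count of falls at 2% glucose depended on single libraries: it was 10 without 0.5%/7 mM replicate 2, 2 without replicate 1 or 2 of the 2%/1 mM or the 2%/7 mM medium, and 3 without replicate 3 of either. Calls over all genes moved as well. Without 0.5%/7 mM replicate 2 they were 50.5%, with 1640 higher and 1471 lower of 6164 genes.

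Glucose restriction means 0.5% against 2% glucose. At 7 mM potassium 25 wall genes fell and 3 rose, or 73.7% against 33.9% of all genes tested (17% lower and 16.9% higher), and the median was -1.32 against 0.03. At 1 mM potassium 16 rose and 5 fell, or 55.3% against 34.8% of all genes (16.3% higher and 18.4% lower), with a median of 0.47 against -0.02. Under scaling by the WBGene rows of the table, which carry no yeast identifier, the split at 1 mM potassium was 11 to 8. Without 0.5%/1 mM replicate 3 it was 14 to 3. At 7 mM potassium the count of rises was 5 without 0.5%/7 mM replicate 1.

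With both nutrients restricted, the 0.5%/1 mM medium against the 2%/7 mM medium, 21 wall genes rose and 5 fell, or 68.4% against 47.4% of all genes (22.8% higher and 24.5% lower). The effect of potassium differed between the 2 glucose levels for 22 of the 38 genes (57.9%) by edgeR's interaction test, against 29.9% of all genes (14.8% more positive and 15.2% more negative at 0.5% glucose). In all 22 the log2 fold change of potassium restriction was more positive at 0.5% than at 2% glucose, and the median difference was 1.52, against -0.02 over all genes. Under WBGene scaling the split was 15 to 3. Over all genes 340 were then more positive and 1636 more negative, with a median of -0.63. These comparisons share groups of libraries, so their counts are not independent of each other.

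The direction of small changes over all genes depended on scaling. The share of called genes that were higher was 46.7% for potassium restriction at 2% glucose, and 67.8%, 67.1% and 73.0% under upper-quartile scaling, library totals and WBGene scaling. It was 48.6% at 0.5% glucose and 44.8%, 41.7% and 26.4% under the same alternatives. For glucose restriction it was 49.8% at 7 mM potassium, with 61.8%, 57.1% and 65.4% under the alternatives, and 47.0% at 1 mM, with 36.4%, 30.7% and 20.7%. For the interaction it was 49.3%, with 33%, 30.5% and 17.2%. WBGene scaling, the strongest of these, shifted the all-gene median log2 fold change to 0.30 and -0.34 for potassium restriction at 2% and 0.5% glucose and to 0.23 and -0.45 for glucose restriction at 7 and 1 mM potassium. None of the 146 called values of wall genes changed sign under any of these scalings.

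**Figure D2:**
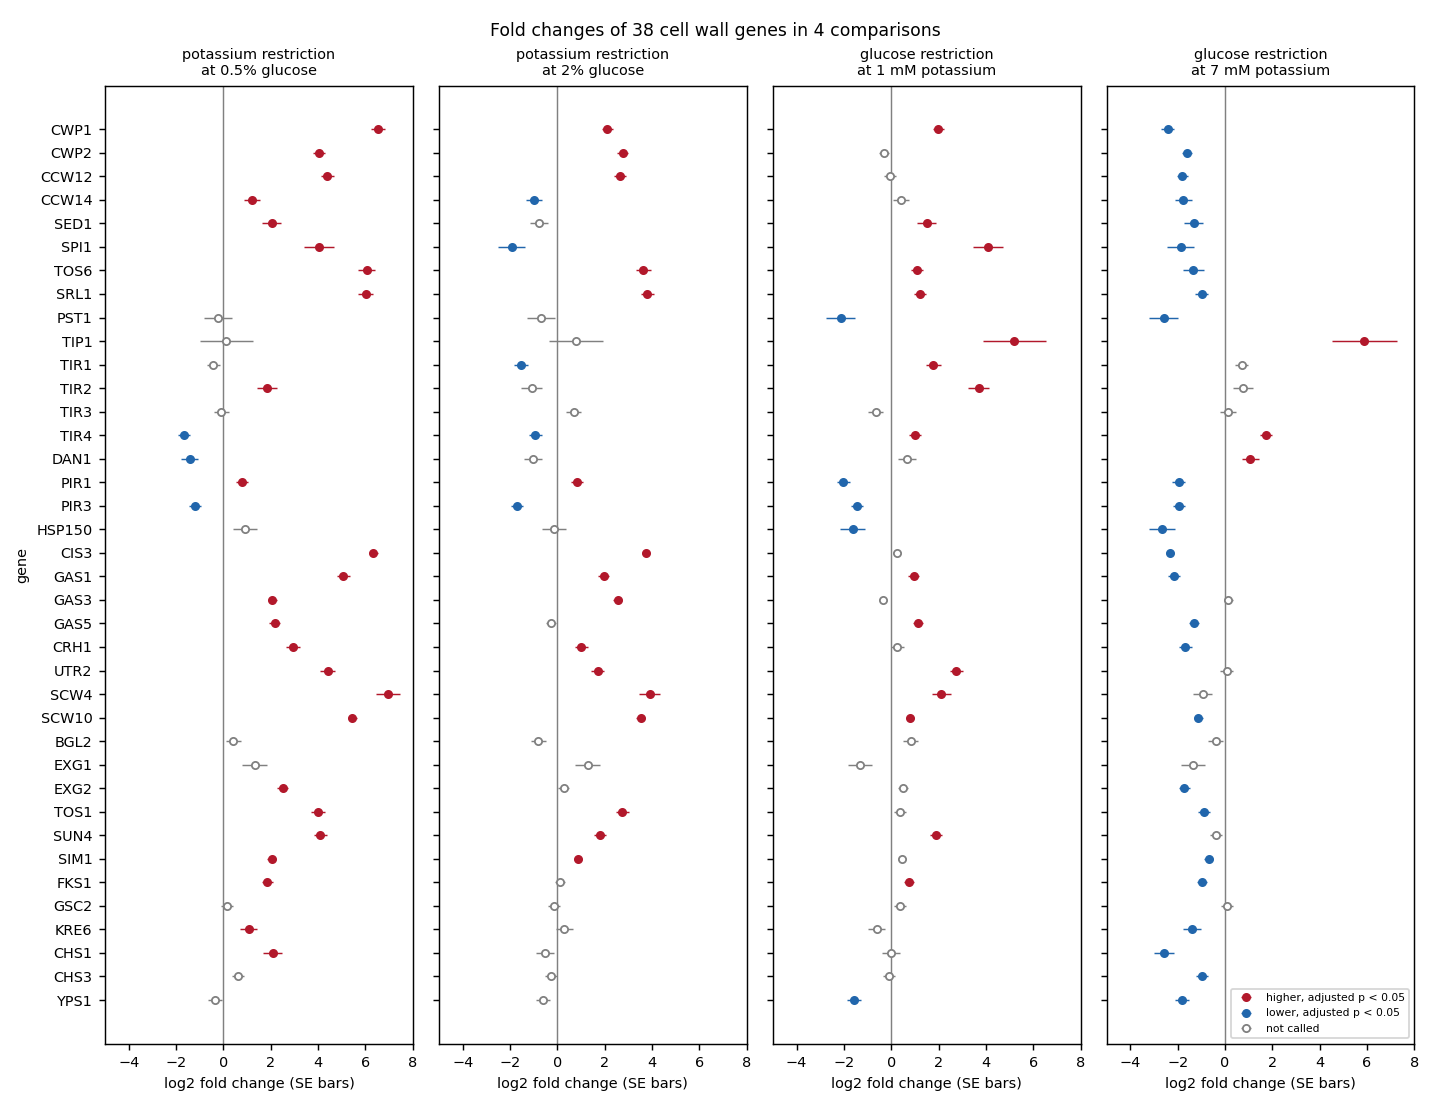
Log2 fold changes of the 38 wall genes in 4 comparisons, with bars for the SE; filled points had an adjusted p under 0.05 in edgeR and open points did not. Most points lie right of 0 for potassium restriction at 0.5% glucose, where 25 rose, and left of 0 for glucose restriction at 7 mM potassium, where 25 fell.

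Among the GPI-anchored and related mannoproteins, 8 of 9 rose with potassium restriction at 0.5% glucose, and 5 rose and 2 fell at 2% glucose. Of the falls at 2% glucose, those of SPI1 and CCW14, neither passed the test when any 1 of the 6 libraries compared was left out. All 9 fell with glucose restriction at 7 mM potassium, and 5 of them without replicate 3 of either medium compared. CWP1, a mannoprotein of the birth scar, was at 405, 379 and 309 CPM in the 0.5%/1 mM medium and at 5.88, 3.51 and 2.37 CPM in the 0.5%/7 mM medium. At 2% glucose it was at 79.5, 102 and 93.6 CPM with 1 mM and 21.5, 22.6 and 19.9 CPM with 7 mM potassium. The 4 media did not overlap, and the level with 1 mM potassium was the higher at both glucose levels. In edgeR the change was 6.52 ± 0.29, adjusted p = 1.03e-07 at 0.5% glucose and 2.10 ± 0.23, adjusted p = 6.27e-05 at 2% glucose, and the difference between them was 4.42 ± 0.35 (adjusted p = 1.5e-05).

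CWP2 and CCW12 are among the most abundant structural proteins of the growing wall. CWP2 was at 800, 890 and 875 CPM in the 0.5%/1 mM medium, against 62.1, 35.9 and 56.9 CPM in the 0.5%/7 mM medium. It was at 1140, 1000 and 1046 CPM in the 2%/1 mM medium, against 135, 174 and 162 CPM in the 2%/7 mM medium. Potassium thus separated the libraries at either glucose level, by 4.05 ± 0.25, adjusted p = 7.67e-07 and by 2.76 ± 0.23, adjusted p = 1.05e-05 in edgeR. With 1 mM potassium, glucose restriction gave -0.31 ± 0.22, adjusted p = 0.297 for CWP2, a value that did not pass the test.

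CCW12 had 3160, 2886 and 2233 CPM in the 0.5%/1 mM medium and 151, 97.1 and 150 CPM in the 0.5%/7 mM medium. With 2% glucose it had 2761, 2988 and 2862 CPM with 1 mM potassium and 456, 511 and 426 CPM with 7 mM. Its 2 media with 1 mM potassium overlapped, and both stood above the 2 media with 7 mM. The log2 fold change of potassium restriction was 4.38 ± 0.28 at 0.5% glucose (edgeR adjusted p = 9e-07) and 2.63 ± 0.25 at 2% glucose (adjusted p = 2.74e-05). With glucose restriction at 7 mM potassium it fell by 1.81 ± 0.25 (adjusted p = 0.000203). Its adjusted p for the interaction was 0.00284, and 0.0864 under WBGene scaling.

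The mannoproteins TOS6 and SRL1 had low counts in one pair of media and higher counts in the other. SRL1, found as a suppressor of the lethality of checkpoint kinase mutants, was at 472, 482 and 620 CPM in the 0.5%/1 mM medium and 4.51, 12.1 and 8.22 CPM in the 0.5%/7 mM medium. It was at 210, 212 and 256 CPM in the 2%/1 mM medium and 15, 16.4 and 17 CPM in the 2%/7 mM medium. The gaps between the potassium levels, 6.01 ± 0.32 and 3.81 ± 0.28 on the log2 scale, were far larger than the spread within any medium (edgeR adjusted p = 2.53e-07 and 4.27e-06). TOS6, named as a target of SBF, had 55.2, 54.4 and 37.6 CPM in the 0.5%/1 mM medium and 0.273, 1.36 and 0.696 CPM in the 0.5%/7 mM medium, where its lowest library held 2 counts. In 2% glucose TOS6 had 21.4, 23.1 and 25.3 CPM with 1 mM and 2.28, 1.44 and 1.93 CPM with 7 mM potassium, and its log2 fold changes for potassium were 6.04 ± 0.37 at 0.5% glucose, or 6.63 without 0.5%/7 mM replicate 2, and 3.62 ± 0.32 at 2%. The fall of TOS6 with glucose restriction at 7 mM potassium, -1.35 ± 0.44, adjusted p = 0.0347 in edgeR, was lost without any of 10 libraries, and that of SRL1, -0.99 ± 0.28, adjusted p = 0.0175, without 0.5%/7 mM replicate 3 or 2%/7 mM replicate 2 or 3.

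SED1, the main structural mannoprotein of stationary phase cells, had the highest level per kilobase of the 38 genes in all 4 media. Its libraries held 14677, 16330 and 37691 CPM in the 0.5%/1 mM medium and 4742, 7706 and 4334 CPM in the 0.5%/7 mM medium. They held 7231, 6904 and 10309 CPM in the 2%/1 mM medium and 14963, 12134 and 15059 CPM in the 2%/7 mM medium. The media did not overlap at either glucose level, but the order of the potassium levels was turned: 1 mM was the higher at 0.5% glucose and the lower at 2%. At 0.5% glucose the rise was 2.03 ± 0.40, adjusted p = 0.00163 in edgeR, and without 0.5%/1 mM replicate 3, the highest library, it was 1.44. At 2% glucose the value was -0.79 ± 0.39, adjusted p = 0.151, which did not pass the test. The 2 effects differed by 2.82 ± 0.56 (adjusted p = 0.00312), or by 2.21 without that library. Its rise with glucose restriction at 1 mM potassium, 1.49 ± 0.40, adjusted p = 0.0127, was lost without that library or without 2%/1 mM replicate 1 or 2, and its fall at 7 mM potassium, -1.33 ± 0.39, adjusted p = 0.022, without replicate 1 or 3 of either medium compared.

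SPI1, a GPI protein related to SED1 and induced by weak acids, moved in opposite directions at the 2 glucose levels. It was at 2380, 3166 and 7617 CPM in the 0.5%/1 mM medium, against 153, 505 and 140 CPM in the 0.5%/7 mM medium. At 2% glucose it was at 306, 321 and 141 CPM with 1 mM potassium, against 1075, 885 and 956 CPM with 7 mM. Neither pair of media overlapped. The changes of 4.05 ± 0.62, adjusted p = 0.000338 and -1.93 ± 0.57, adjusted p = 0.0264 differed by 5.97 ± 0.84 (edgeR adjusted p = 0.000432), and this was the largest of the 22 interactions that passed the test. Without 0.5%/1 mM replicate 3 the rise at 0.5% glucose was 3.34 and the difference 5.27, and without 0.5%/7 mM replicate 2 they were 4.92 and 6.83. With glucose restriction SPI1 rose at 1 mM potassium by 4.10 ± 0.63, adjusted p = 0.000573, or by 3.43 without 0.5%/1 mM replicate 3. At 7 mM it fell (-1.87 ± 0.57, adjusted p = 0.0251), with -2.73 without 0.5%/7 mM replicate 2, and that fall was lost without 0.5%/7 mM replicate 1 or 3 or any 2%/7 mM library.

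CCW14, a mannoprotein of the inner wall, had 599, 655 and 1009 CPM in the 0.5%/1 mM medium and 422, 167 and 399 CPM in the 0.5%/7 mM medium. It had 526, 473 and 683 CPM in the 2%/1 mM medium and 1069, 1026 and 1259 CPM in the 2%/7 mM medium. Like SPI1 it rose with potassium restriction at 0.5% glucose (1.20 ± 0.34, adjusted p = 0.013 in edgeR) and fell at 2% (-1.0 ± 0.34, adjusted p = 0.0467). The fall of CCW14 was also lost without 0.5%/1 mM replicate 1 or 2 and under all 3 other scalings. PST1, which is induced by damage to the wall, stood apart from this class. It was at 371, 350 and 272 CPM in the 0.5%/1 mM medium and 590, 51.7 and 516 CPM in the 0.5%/7 mM medium, with replicate 2 of the second far below its partners. It was at 1410, 1382 and 1553 CPM in the 2%/1 mM medium and 2310, 2299 and 2364 CPM in the 2%/7 mM medium, above all libraries with 0.5% glucose. PST1 fell with glucose restriction at 7 mM potassium (-2.59 ± 0.62, adjusted p = 0.00734) and at 1 mM (-2.13 ± 0.61, adjusted p = 0.0183), the second lost without 0.5%/1 mM replicate 3. Its change with potassium did not pass the test, but did at both glucose levels without 0.5%/7 mM replicate 2.

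**Figure D3:**
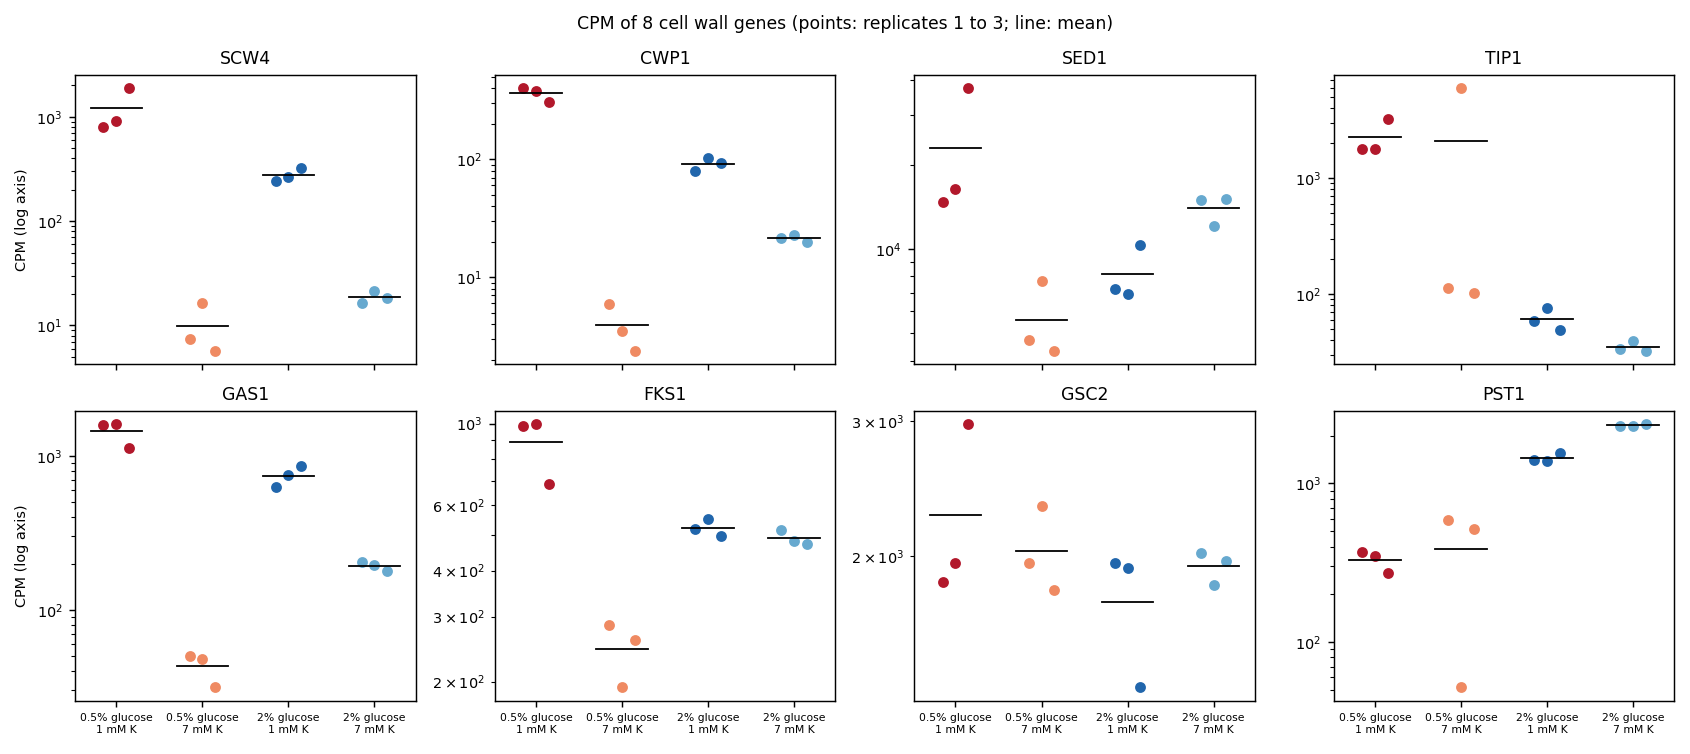
Levels of 8 wall genes in CPM on log axes, with points for replicates 1 to 3 of each medium and a line at their mean; each panel has its own range. SCW4, CWP1 and GAS1 are higher with 1 mM than with 7 mM potassium at both glucose levels, SED1 changes order between them, GSC2 changes little, and in TIP1 and PST1 replicate 2 of the 0.5%/7 mM medium lies far from its partners.

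The cold-shock and anaerobic mannoproteins, a family that replaces CWP1 and CWP2 in cells without oxygen, did not follow the other mannoproteins. TIP1, induced by cold and heat, was at 1781, 1790 and 3205 CPM in the 0.5%/1 mM medium and 113, 6004 and 102 CPM in the 0.5%/7 mM medium. It was at 58.5, 76.4 and 49.4 CPM in the 2%/1 mM medium and 33.6, 39.9 and 32.5 CPM in the 2%/7 mM medium. Replicate 2 of the 0.5%/7 mM medium held the highest TIP1 level of all 12 libraries, and its partners the lowest of the libraries with 0.5% glucose. With glucose restriction TIP1 rose at 1 mM potassium by 5.20 ± 1.33, adjusted p = 0.0103 in edgeR and at 7 mM by 5.87 ± 1.37, adjusted p = 0.00636. Without 0.5%/7 mM replicate 2 the second value was 1.60, and without replicate 1 or 3 it was 6.48 or 6.49. Potassium restriction at 0.5% glucose gave 0.12 ± 1.11, adjusted p = 0.935, and 4.41 without replicate 2, a value that passed the test. The difference between the potassium effects was -0.67 (adjusted p = 0.782), and 3.60 without that library.

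TIR2 was at 52.1, 63.3 and 103 CPM in the 0.5%/1 mM medium and 9.16, 36.8 and 15.7 CPM in the 0.5%/7 mM medium. With 2% glucose it was at 6.11, 6.07 and 4.67 CPM with 1 mM and 11.4, 11.2 and 13 CPM with 7 mM potassium. It rose with potassium restriction at 0.5% glucose (1.84 ± 0.42, adjusted p = 0.00364 in edgeR), by 2.56 without 0.5%/7 mM replicate 2, while the value at 2% glucose was -1.08 ± 0.45, adjusted p = 0.0913. At 0.5% glucose TIR4 and DAN1 had the order of potassium levels opposite to that of TIR2, and both were highest in the 0.5%/7 mM medium. TIR4 was at 13.5, 15.5 and 16.2 CPM in the 0.5%/1 mM and 38.4, 52.8 and 52.9 CPM in the 0.5%/7 mM medium, and fell by 1.67 ± 0.26, adjusted p = 0.000356 with potassium restriction. At 2% glucose TIR4 was at 4.84, 6.6 and 11 CPM with 1 mM and 14.8, 15.5 and 12.7 CPM with 7 mM potassium, where it fell by 0.94 ± 0.27, adjusted p = 0.0229, a call that was lost without replicate 1 or 2 of either medium and under 3 other scalings.

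DAN1, TIR1 and TIR3 were low throughout. DAN1, a marker of anaerobic growth, ranged over 2.58 to 3.8 CPM in the 0.5%/1 mM, 5.74 to 12.7 in the 0.5%/7 mM, 1.32 to 2.51 in the 2%/1 mM and 3.45 to 4.07 in the 2%/7 mM medium. It fell by 1.43 ± 0.37, adjusted p = 0.0075 in edgeR with potassium restriction at 0.5% glucose, and its rise with glucose restriction at 7 mM potassium, 1.07 ± 0.35, adjusted p = 0.0356, was lost without any of 6 libraries. TIR1 ranged over 7.41 to 9.63, 7.79 to 14.2, 1.56 to 2.8 and 6.68 to 6.92 CPM in the 4 media in the same order, and fell by 1.52 ± 0.30, adjusted p = 0.00318 with potassium restriction at 2% glucose. TIR3 was at 4.64 to 7.61, 4.46 to 8.77, 7.18 to 10.8 and 4.75 to 6.59 CPM and passed no test.

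PIR proteins carry internal repeats and are bound to glucan through glutamine residues. All 4 fell with glucose restriction at 7 mM potassium, and 3 also at 1 mM. PIR3 was at 734, 815 and 1094 CPM in the 0.5%/1 mM medium and 2238, 1614 and 2223 CPM in the 0.5%/7 mM medium. It was at 2454, 2473 and 2269 CPM in the 2%/1 mM medium and 8230, 7281 and 8026 CPM in the 2%/7 mM medium. At each glucose level the 1 mM libraries lay below the 7 mM libraries, and every library with 0.5% glucose lay below every library with 2%. With potassium restriction PIR3 fell by 1.20 ± 0.24, adjusted p = 0.00188 at 0.5% glucose and fell by 1.71 ± 0.25, adjusted p = 0.000404 at 2% (edgeR). With both restrictions it fell by 3.16 ± 0.26, adjusted p = 3.5e-06, the steepest fall of the 38 genes in that comparison.

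PIR1 lies next to PIR3 on chromosome XI and is read in the opposite direction, with 1581 bases between them. PIR1 was at 145, 154 and 184 CPM in the 0.5%/1 mM medium and 78.5, 140 and 64.5 CPM in the 0.5%/7 mM medium. It was at 604, 582 and 777 CPM in the 2%/1 mM medium and 379, 348 and 376 CPM in the 2%/7 mM medium. Unlike its neighbour it was the higher with 1 mM potassium, by 0.77 ± 0.26, adjusted p = 0.0283 at 0.5% glucose and 0.83 ± 0.26, adjusted p = 0.0329 at 2%. These calls were the least stable of the class: the first was lost without any of 9 libraries and the second without any of 8, among them every library compared. The coding sequences of the 2 genes share 79.2% of aligned bases, and 6.14% of 50-base windows of PIR1 also occur in PIR3, so some reads could have been divided between them.

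CIS3 and HSP150, a further pair of PIR genes, meet tail to tail on chromosome X with 574 bases between them. CIS3 was at 420, 435 and 362 CPM in the 0.5%/1 mM medium, against 5.6, 4.68 and 4.73 CPM in the 0.5%/7 mM medium. In 2% glucose it was at 304, 321 and 390 CPM with 1 mM, against 24.9, 27.5 and 24.1 CPM with 7 mM potassium. The replicates lay close together in every medium, and CIS3 rose with potassium restriction by 6.33 ± 0.19, adjusted p = 2.98e-09 at 0.5% glucose and by 3.73 ± 0.16, adjusted p = 1.24e-07 at 2% (edgeR), the smallest adjusted p of the 38 genes in both comparisons. HSP150, induced by heat, was at 1511, 1602 and 1339 CPM in the 0.5%/1 mM medium and 1262, 169 and 942 CPM in the 0.5%/7 mM medium, with replicate 2 far below. It was at 4093, 4207 and 5483 CPM in the 2%/1 mM medium and 5402, 4815 and 4847 CPM in the 2%/7 mM medium. Its values for potassium, 0.91 ± 0.51 and -0.13 ± 0.51, did not pass the test (adjusted p = 0.165 and 0.869). With glucose restriction HSP150 fell by 2.67 ± 0.54, adjusted p = 0.00279 at 7 mM potassium and fell by 1.63 ± 0.52, adjusted p = 0.0304 at 1 mM, the second lost without any 0.5%/1 mM library or 2%/1 mM replicate 2 or 3. Whether reads were assigned by strand is not given in the sources used here, so reads past the ends of convergent genes could be counted for either.

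**Figure D4:**
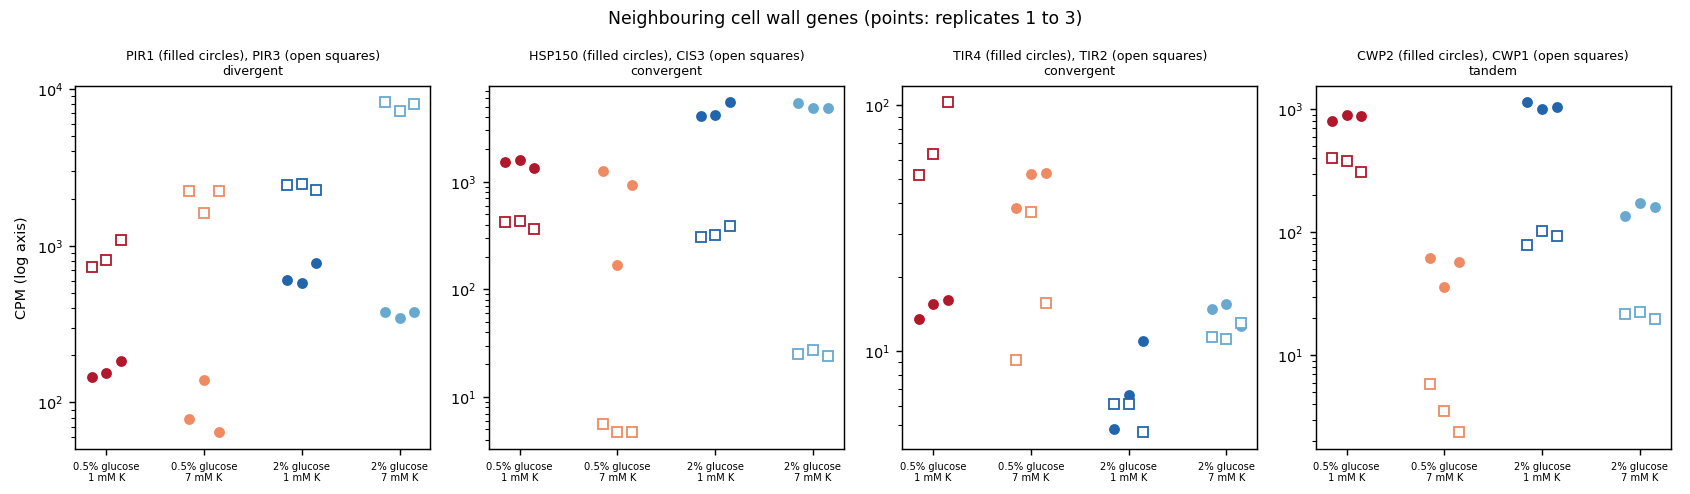
Levels in CPM, on log axes, of 4 pairs of wall genes that are chromosomal neighbours; filled circles and open squares are replicates 1 to 3 of the first and the second gene in each medium. PIR1 is higher and PIR3 lower with 1 mM potassium at both glucose levels, CIS3 is higher with 1 mM potassium at both glucose levels while HSP150 overlaps between potassium levels at 2% glucose, and CWP1 and CWP2 are both higher with 1 mM than with 7 mM potassium.

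GAS1, GAS3 and GAS5 belong to the family of beta-1,3-glucanosyltransferases, which lengthen glucan chains, and 3 of 3 rose with potassium restriction at 0.5% glucose. GAS1, the main enzyme in growing cells, was at 1605, 1612 and 1132 CPM in the 0.5%/1 mM medium, against 50, 48.1 and 31.3 CPM in the 0.5%/7 mM medium. With 2% glucose it was at 634, 751 and 858 CPM with 1 mM, against 205, 197 and 178 CPM with 7 mM potassium. The 4 media did not overlap. The rise was 5.07 ± 0.28, adjusted p = 3.81e-07 at 0.5% and 1.95 ± 0.24, adjusted p = 0.000153 at 2% glucose in edgeR, and the difference of 3.12 ± 0.34 passed the test (adjusted p = 9.77e-05). With glucose restriction GAS1 fell by 2.17 ± 0.25, adjusted p = 5.58e-05 at 7 mM potassium and rose by 0.96 ± 0.24, adjusted p = 0.0088 at 1 mM, the rise being lost without 2%/1 mM replicate 1 and under scaling by totals or WBGene rows.

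GAS3 rose with potassium restriction at both glucose levels. It was at 67.9, 66.9 and 57.3 CPM in the 0.5%/1 mM and 15.7, 17.9 and 12.3 CPM in the 0.5%/7 mM medium, a rise of 2.07 ± 0.18, adjusted p = 8.15e-06 in edgeR. At 2% glucose it was at 73.9, 76.5 and 93.8 CPM with 1 mM and 11.6, 15.1 and 15.1 CPM with 7 mM potassium, a rise of 2.54 ± 0.19, adjusted p = 3.69e-06. The difference between the rises was -0.48 ± 0.25, adjusted p = 0.181, and glucose gave no call at either potassium level. GAS5 was at 483, 515 and 686 CPM in the 0.5%/1 mM medium and 97.9, 164 and 116 CPM in the 0.5%/7 mM medium. It was at 246, 284 and 239 CPM in the 2%/1 mM medium and 325, 295 and 316 CPM in the 2%/7 mM medium. It rose with potassium restriction at 0.5% glucose (2.16 ± 0.22, adjusted p = 2.13e-05 in edgeR), while the value at 2% (-0.28 ± 0.21, adjusted p = 0.333) did not pass the test. The interaction passed it (2.44 ± 0.30, adjusted p = 0.000193).

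The transglycosylases CRH1 and UTR2 attach chitin to glucan. UTR2 was at 349, 354 and 219 CPM in the 0.5%/1 mM medium, against 9.7, 17.5 and 16.7 CPM in the 0.5%/7 mM medium. At 2% glucose it was at 36.6, 52.4 and 47.9 CPM with 1 mM, against 17.8, 11.2 and 12.9 CPM with 7 mM potassium. The 0.5%/1 mM libraries stood far above the other 9, and the 2 media with 7 mM potassium overlapped. UTR2 rose with potassium restriction by 4.40 ± 0.30, adjusted p = 1.38e-06 and 1.71 ± 0.27, adjusted p = 0.000854 in edgeR, with an interaction of 2.69 ± 0.38 (adjusted p = 0.000471), and with glucose restriction at 1 mM potassium by 2.75 ± 0.27, adjusted p = 4.79e-05. CRH1 was at 1133, 1130 and 741 CPM in the 0.5%/1 mM, 157, 78.7 and 154 in the 0.5%/7 mM, 749, 858 and 905 in the 2%/1 mM and 409, 450 and 385 in the 2%/7 mM medium. Its rises were 2.95 ± 0.29, adjusted p = 1.79e-05 at 0.5% glucose and 1.02 ± 0.28, adjusted p = 0.0175 at 2%, the second lost without 2%/1 mM replicate 3 or 2%/7 mM replicate 1 or 3.

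SCW4 and SCW10 encode soluble wall proteins that resemble glucanases. SCW4 had the widest range of the 38 genes over the media, with group means 123-fold apart. It was at 794, 923 and 1905 CPM in the 0.5%/1 mM medium, against 7.38, 16.4 and 5.71 CPM in the 0.5%/7 mM medium. In 2% glucose it was at 243, 268 and 324 CPM with 1 mM, against 16.6, 21.3 and 18.2 CPM with 7 mM potassium. The media with 1 mM potassium stood above both with 7 mM, whereas the 2 media with 7 mM nearly met. The rises with potassium restriction were 6.96 ± 0.50, adjusted p = 2.02e-06 at 0.5% glucose (7.54 without 0.5%/7 mM replicate 2) and 3.89 ± 0.43, adjusted p = 6.67e-05 in edgeR, and glucose restriction at 7 mM potassium gave -0.95 ± 0.41, adjusted p = 0.0966, which did not pass the test. SCW10, whose coding sequence shares 68.3% of aligned bases with SCW4, was at 707, 730 and 518 CPM in the 0.5%/1 mM and 15.6, 14.4 and 14.6 CPM in the 0.5%/7 mM medium. It was at 357, 365 and 392 CPM in the 2%/1 mM and 31.9, 36.4 and 29.1 CPM in the 2%/7 mM medium, and rose with potassium restriction by 5.45 ± 0.20, adjusted p = 1.81e-08 and 3.51 ± 0.18, adjusted p = 3.12e-07. SCW10 lies on chromosome XIII with FKS3 between it and GAS1, which had the same order of media.

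TOS1, SUN4 and SIM1, glucanase-like proteins of the wall, rose with potassium restriction at both glucose levels. SUN4, a protein of the septum, was at 423, 434 and 307 CPM in the 0.5%/1 mM medium, against 16.9, 33.7 and 18.1 CPM in the 0.5%/7 mM medium. With 2% glucose it was at 81.4, 115 and 114 CPM with 1 mM, against 30.3, 32.8 and 25.4 CPM with 7 mM potassium, and the rises were 4.09 ± 0.29, adjusted p = 1.76e-06 and 1.81 ± 0.26, adjusted p = 0.000443 in edgeR. Its relative SIM1 had smaller gaps, with 273, 258 and 225 CPM in the 0.5%/1 mM, 55.6, 75.6 and 54.3 in the 0.5%/7 mM, 155, 172 and 226 in the 2%/1 mM and 103, 103 and 93.9 in the 2%/7 mM medium. The rises of SIM1 were 2.03 ± 0.18, adjusted p = 8.3e-06 and 0.88 ± 0.18, adjusted p = 0.00323. TOS1 was at 644, 630 and 515 CPM in the 0.5%/1 mM, 27.3, 57.7 and 26.7 in the 0.5%/7 mM, 422, 492 and 482 in the 2%/1 mM and 69.9, 73.1 and 64.5 in the 2%/7 mM medium. The rises of TOS1 were 4.01 ± 0.30, adjusted p = 2.48e-06 and 2.75 ± 0.28, adjusted p = 3.87e-05, and its interaction of 1.26 ± 0.37, adjusted p = 0.0248 was lost without any of 9 libraries. The falls of TOS1 and SIM1 with glucose restriction at 7 mM potassium, -0.90 and -0.70, were lost without 0.5%/7 mM replicate 1 or 3 or 2%/7 mM replicate 1 or 2.

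BGL2, EXG1 and EXG2 are the glucanases proper. BGL2, the main endo-beta-1,3-glucanase, was at 2005, 2185 and 3037 CPM in the 0.5%/1 mM, 2168, 966 and 2307 in the 0.5%/7 mM, 1255, 1520 and 1300 in the 2%/1 mM and 2376, 2382 and 2402 in the 2%/7 mM medium. BGL2 passed no test, although at 2% glucose its libraries did not overlap, and without 0.5%/7 mM replicate 2 its fall there passed. EXG1, the main secreted exo-beta-1,3-glucanase, was at 769, 733 and 561 CPM in the 0.5%/1 mM, 409, 57.7 and 362 in the 0.5%/7 mM, 1458, 1526 and 2133 in the 2%/1 mM and 672, 770 and 667 in the 2%/7 mM medium. Its values for potassium were 1.31 ± 0.52, adjusted p = 0.0539 and 1.28 ± 0.52, adjusted p = 0.0845 in edgeR, and both passed the test without 0.5%/7 mM replicate 2, the low library. EXG2, a membrane-anchored relative, was at 82.3, 87.5 and 61.3 CPM in the 0.5%/1 mM, 14.4, 17.7 and 9.19 in the 0.5%/7 mM, 47.1, 51.3 and 65.6 in the 2%/1 mM and 44.5, 46.6 and 45.3 in the 2%/7 mM medium. EXG2 rose with potassium restriction at 0.5% glucose (2.49 ± 0.24, adjusted p = 1.31e-05), while the value at 2% (0.27 ± 0.22, adjusted p = 0.384) did not pass the test, and the interaction passed it (2.23 ± 0.32, adjusted p = 0.00048).

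Of the 5 synthases that make the polymers, 3 rose with potassium restriction at 0.5% glucose. At 2% glucose 0 of 5 were called by edgeR, DESeq2 or limma voom, and 1 in a fit to only the groups compared. Their unadjusted edgeR p ran from 0.213 to 0.662, so that 0 were under 0.05. FKS1 and GSC2 encode alternative catalytic subunits of beta-1,3-glucan synthase, FKS1 the one used in growing cells. FKS1 was at 986, 996 and 687 CPM in the 0.5%/1 mM medium, against 285, 193 and 259 CPM in the 0.5%/7 mM medium. At 2% glucose it was at 519, 552 and 496 CPM with 1 mM and 516, 480 and 472 CPM with 7 mM potassium, which overlapped. The change was 1.86 ± 0.22, adjusted p = 4.96e-05 at 0.5% and 0.09 ± 0.21, adjusted p = 0.762 at 2% glucose, with an interaction of 1.76 ± 0.30, adjusted p = 0.00125 that had an adjusted p of 0.0566 under WBGene scaling. GSC2 was at 1850, 1961 and 2972 CPM in the 0.5%/1 mM, 1962, 2328 and 1806 in the 0.5%/7 mM, 1959, 1928 and 1349 in the 2%/1 mM and 2020, 1833 and 1971 in the 2%/7 mM medium, the narrowest range of the 38 genes. Its log2 fold changes lay between -0.15 and 0.37 in the pairwise comparisons, with adjusted p from 0.292 to 0.864 in edgeR. Per kilobase of coding sequence GSC2 stood at 398 CPM against 158 CPM for FKS1 in the 0.5%/1 mM medium, 357 against 43.6 in the 0.5%/7 mM, 307 against 92.7 in the 2%/1 mM and 341 against 86.9 in the 2%/7 mM medium.

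KRE6, needed for beta-1,6-glucan, was at 251, 231 and 171 CPM in the 0.5%/1 mM, 152, 39.2 and 118 in the 0.5%/7 mM, 311, 333 and 360 in the 2%/1 mM and 272, 278 and 266 in the 2%/7 mM medium. Its rise with potassium restriction at 0.5% glucose, 1.08 ± 0.36, adjusted p = 0.0274 in edgeR, was lost without 0.5%/1 mM replicate 1 or 2. CHS1, the repair chitin synthase, was at 524, 597 and 1181 CPM in the 0.5%/1 mM and 178, 206 and 162 CPM in the 0.5%/7 mM medium. At 2% glucose it was at 1013, 942 and 348 CPM with 1 mM and 1185, 1031 and 1074 CPM with 7 mM potassium, 1 library of the first lying well below the rest. CHS1 rose with potassium restriction at 0.5% glucose by 2.08 ± 0.41, adjusted p = 0.00152 and fell by 2.59 ± 0.41, adjusted p = 0.000595 with glucose restriction at 7 mM potassium. CHS3, which makes the chitin ring at the bud neck, was at 132, 133 and 92.5 CPM in the 0.5%/1 mM, 99.4, 44.2 and 90.2 in the 0.5%/7 mM, 118, 119 and 144 in the 2%/1 mM and 156, 147 and 153 in the 2%/7 mM medium. CHS3 was called for glucose restriction at 7 mM potassium alone, where it fell by 0.96 ± 0.25, adjusted p = 0.0123.

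YPS1, a GPI-anchored aspartyl protease induced when the wall is damaged, had the same order of group means as PST1 over all libraries. At 0.5% glucose that order depended on 0.5%/7 mM replicate 2. The potassium value of YPS1 there was -0.36, and 0.13 without that library, neither passing the test. It was at 122, 125 and 121 CPM in the 0.5%/1 mM medium and 128, 248 and 97.7 CPM in the 0.5%/7 mM medium. It was at 417, 393 and 276 CPM in the 2%/1 mM medium and 589, 544 and 529 CPM in the 2%/7 mM medium. Every library with 0.5% glucose lay below every library with 2%, and with glucose restriction YPS1 fell by 1.56 ± 0.30, adjusted p = 0.00209 at 1 mM and fell by 1.81 ± 0.30, adjusted p = 0.000768 at 7 mM potassium (edgeR). Without 0.5%/7 mM replicate 2 the value at 7 mM was -2.30. Potassium restriction at 2% glucose (-0.60) and the interaction (0.73) then passed the test, which they did not with all libraries.

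The upstream matches can be set beside these values. Of the 16 wall genes that rose with potassium restriction at both glucose levels, 12 had an SBF match within 500 bases, and of the other 22 genes 1 had one, EXG2. The 4 without a match were CIS3, CRH1, PIR1 and SRL1. An Rlm1 match lay upstream of 1 of the 16, CWP1, and of 7 of the other 22, which were CCW14, SED1, PST1, PIR3, HSP150, GAS5 and BGL2. In windows of 300 bases SBF matches numbered 6 (5 and 1) and Rlm1 matches 5 (0 and 5), and in windows of 800 bases 15 (13 and 2) and 11 (2 and 9). These windows were chosen after the data had been seen. The genes were grouped by their values here, so no test was made.

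Genes outside the list give a view of the same motifs. Of 328 other tested genes with an SBF match, 25.6% rose and 14.0% fell with potassium restriction at 2% glucose, against 13.4% and 15.6% of all 5660 tested genes with a promoter. At 0.5% glucose 34.1% rose and 17.7% fell, against 23.1% and 25.8%. Of 90 other genes with an Rlm1 match, 5.56% rose and 32.2% fell at 2% glucose, and 17.8% rose and 25.6% fell at 0.5%. The remaining motifs were AGGGG (the stress element), TCGTATA (a sterol and anaerobic element) and GNGGCNCA (Crz1). They lay upstream of 21.1%, 10.5% and 5.26% of wall genes, against 34.1%, 7.0% and 7.67% of all promoters. Of 38 matches in the 38 promoters, 0 pairs of different motifs overlapped. A match describes the letters in the window and not the binding of a factor.

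**Figure D5:**
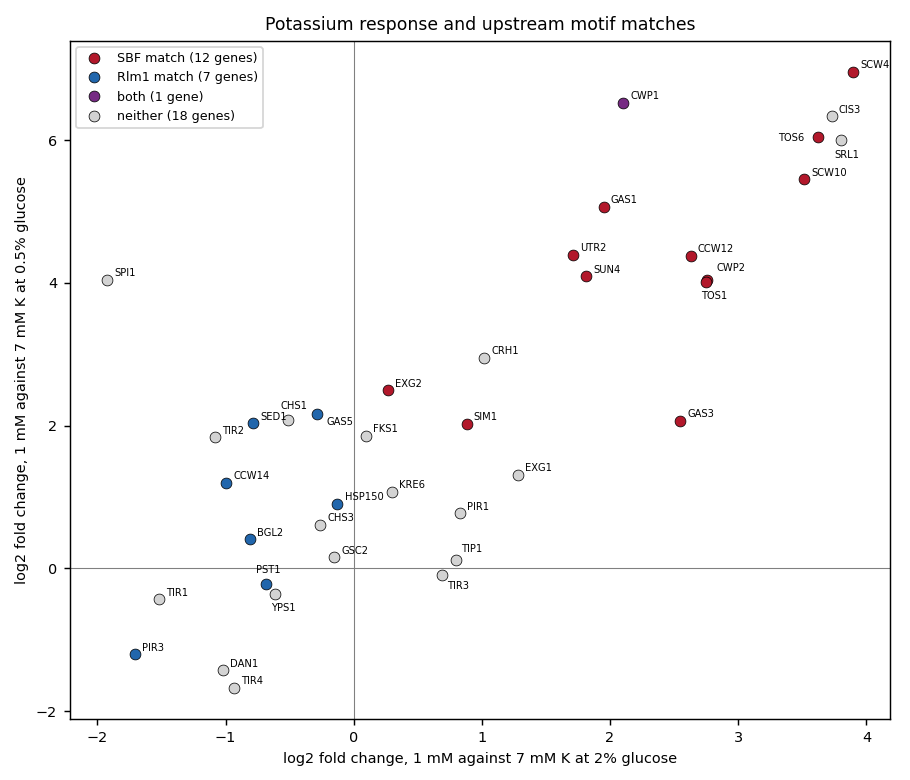
Log2 fold change of potassium restriction at 0.5% glucose (vertical) against that at 2% glucose (horizontal) for the 38 wall genes, coloured by matches within 500 bases upstream. The 12 genes with an SBF match alone lie right of 0 and above it, and the 7 with an Rlm1 match alone lie left of 0. Of these 7 only PIR3 and CCW14 were called lower at 2% glucose, and HSP150 (-0.13) and GAS5 (-0.28) lie near 0.

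Genes of related pathways, from lists of 142 genes that are not members, were set beside the wall genes. Over all genes tested 13.1% rose and 15% fell with potassium restriction at 2% glucose, and 23.5% rose and 24.9% fell at 0.5%. Of 12 genes of daughter-cell separation, the step in which the septum is dissolved, 9 rose with potassium restriction at 2% glucose and the other 3 passed no test, while at 0.5% glucose 9 rose and 2 fell. At 2% glucose the glucanase SCW11 rose by 2.56 ± 0.24, adjusted p = 2.41e-05 and DSE1 by 2.54 ± 0.27, adjusted p = 5.36e-05 (edgeR). At 0.5% glucose the chitinase CTS1 rose by 4.27 ± 0.30, adjusted p = 1.58e-06 and DSE2 by 4.69 ± 0.40, adjusted p = 6.57e-06. The median of this list was 1.53 at 2% and 2.05 at 0.5% glucose, against -0.00 and -0.02 over all genes.

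The cell wall integrity pathway carries stress signals from wall sensors to the kinase Slt2. Of its 22 genes 1 rose and 10 fell with potassium restriction at 2% glucose, or 4.55% and 45.5% against 13.1% and 15% of all genes, with 5 to 12 falls over all alternatives. At 0.5% glucose 6 rose and 7 fell, or 27.3% and 31.8%, near the 23.5% and 24.9% of all genes, and the rises were 2 under WBGene scaling. At 2% glucose SLT2 fell by 1.65 ± 0.25, adjusted p = 0.000606 in edgeR, the sensor gene MID2 fell by 0.96 ± 0.14, adjusted p = 0.000474 and the phosphatase gene PTP2 fell by 1.10 ± 0.18, adjusted p = 0.000926. At 0.5% glucose MID2 and PTP2 instead rose, by 1.40 ± 0.14, adjusted p = 2.26e-05 and 1.37 ± 0.18, adjusted p = 0.000119, and their interactions passed the test (adjusted p = 1.88e-05 and 7.55e-05). With glucose restriction at 7 mM potassium 8 of the 22 fell and 1 rose, or 36.4% and 4.55% against 17% and 16.9% of all genes. The falls included SLT2 (-2.30 ± 0.26, adjusted p = 4.97e-05 in edgeR) and MID2 (-2.23 ± 0.15, adjusted p = 1.42e-06). The 8 falls were 5 without replicate 1 or 3 of either medium compared.

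Protein mannosylation supplies the sugar chains of wall mannoproteins. Of its 24 genes 11 rose and 1 fell with potassium restriction at 2% glucose, or 45.8% and 4.17% against 13.1% and 15% of all genes. At 0.5% glucose 10 rose and 3 fell, or 41.7% and 12.5% against 23.5% and 24.9%. SEC53 and PMI40, which make mannose phosphates, rose by 1.39 ± 0.16 and 1.10 ± 0.15 at 2% glucose (edgeR adjusted p = 7.74e-05 and 0.000288). PSA1, which makes GDP-mannose, rose by 3.16 ± 0.27, adjusted p = 7.1e-06 at 0.5% glucose. The 1 fall was 3 without 0.5%/7 mM replicate 2 and 0 without any of 9 other libraries. GPI anchor synthesis had 3 rises and 4 falls among 24 genes at 2% glucose (12.5% and 16.7%) and 8 and 7 at 0.5% (33.3% and 29.2%), shares near those of all genes. At 2% glucose these were 7 and 8 without 0.5%/7 mM replicate 2, and the 3 rises were 1 without replicate 1 or 3 of either medium compared. At 0.5% glucose the 8 rises were 4 or 5 without 0.5%/1 mM replicate 1 or 2, and 1 to 9 over all alternatives, with the 1 under WBGene scaling.

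Of 17 genes of beta-glucan assembly, 3 rose and 4 fell with potassium restriction at 2% glucose, or 17.6% and 23.5% against 13.1% and 15% of all genes. At 0.5% glucose 3 rose and 9 fell, or 17.6% and 52.9% against 23.5% and 24.9%. KNH1, a relative of KRE9, rose at 2% glucose (1.55 ± 0.30, adjusted p = 0.00273 in edgeR) and fell at 0.5% (-3.32 ± 0.31, adjusted p = 1.18e-05), opposite to SPI1. Of 14 genes of chitin synthesis and export 4 rose and 1 fell at 2% glucose (28.6% and 7.14%), and 4 rose and 4 fell at 0.5% (28.6% each, near the shares of all genes). CDA1, a chitin deacetylase known from spores, rose at 2% glucose (1.98 ± 0.27, adjusted p = 0.000243) and fell at 0.5% (-1.80 ± 0.25, adjusted p = 0.000173). Of 19 further wall proteins 5 rose and 8 fell at 2% glucose (26.3% and 42.1%), and 8 rose and 3 fell at 0.5% (42.1% and 15.8%). ECM33, a relative of PST1 needed for wall structure, rose by 3.36 ± 0.34, adjusted p = 3.95e-05 at 2% glucose, and UTH1, of the SUN family, by 3.46 ± 0.37, adjusted p = 2.62e-05 at 0.5%. Of 8 agglutinins and flocculins 5 fell at 2% glucose (62.5%) and the other 3 passed no test, and 1 rose and 1 fell at 0.5% (12.5% each). SAG1, the alpha-agglutinin, fell by 0.84 ± 0.19, adjusted p = 0.00712 at 2% and rose by 1.73 ± 0.20, adjusted p = 4.07e-05 at 0.5% glucose.

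Several of these small counts turned on 1 library or on scaling. Over all alternatives beta-glucan assembly had 1 to 7 falls at 2% glucose and 1 to 3 rises at 0.5%, and chitin synthesis and export 1 to 4 rises at 0.5%, with the lowest of each under WBGene scaling. At 2% glucose, without 0.5%/7 mM replicate 2, 7 genes of beta-glucan assembly and 3 of chitin synthesis and export fell. That fit called 50.5% of all genes, against 28.1% with all libraries. Leaving out 1 of the 6 libraries compared gave 2 or 3 falls in beta-glucan assembly, 3 rises and 4 or 5 falls among the other wall proteins and 2 to 4 falls among agglutinins and flocculins. The 1 fall in chitin synthesis and export was then 0 without 2%/1 mM replicate 1 or 2 or 2%/7 mM replicate 3, and the 1 rise in the cell wall integrity pathway 0 without 2%/1 mM replicate 3 or 2%/7 mM replicate 1 or 3. At 0.5% glucose the 4 rises in chitin synthesis and export were 2 without 0.5%/1 mM replicate 1, and the 1 fall among agglutinins and flocculins was 2 or 3 without replicate 3 of 0.5%/1 mM, 0.5%/7 mM or 2%/1 mM, or 2%/7 mM replicate 2.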

How the data were processed

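RNA from 12 libraries, 3 biological replicates in each of 4 media, was sequenced as paired-end reads. The table deposited by the authors held expected counts for each gene, given as whole numbers and used as they stand. Per the labels' protocols, STAR 2.7.1a aligned the reads to genome build R64-1-1, and RSEM 1.3.3 is named in the submitters' processing notes. The annotation and the strand setting are not given in the sources used here. The table held 46904 rows, 7127 with SGD identifiers and 39777 with WBGene identifiers. The WBGene rows took 34.0% to 41.6% of counts per library and were used solely to scale in 1 alternative. Theirs are not yeast identifiers, and the sources used here give them no names. The R64 annotation of RefSeq named 6444 SGD rows (90.4%).

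In edgeR 4.0.16, counts at SGD rows were TMM-scaled and filtered with its default (6127 genes), and a quasi-likelihood model with 1 mean per medium was fitted to all 12 libraries, with 8 residual degrees of freedom. Calls used a Benjamini-Hochberg adjusted p under 0.05. The members and the 8 lists of related genes were chosen with earlier results of these data known. Any member could be named, and most room went to called members averaging 10 CPM or more whose compared groups stood apart. From each list up to 3 called genes with the smallest p per comparison could be named. Alternatives were DESeq2 1.42.0, limma 3.58.1 voom, other scalings and count filters, fits to the compared groups, omission of each library, and a block for replicate numbers. The scripts were tested on simulated data. Upstream sequences were read with Biopython 1.88 from the R64 genome. Libraries held 5634205 to 7036345 counts at SGD rows, which sets the counting precision of low genes. Motif windows of 300 and 800 bases were added after seeing the data.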

Additional observations from a re-analysis of the deposited data

Results flagged for a closer look

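For 22 of the 38 genes the effect of potassium restriction differed between 0.5% and 2% glucose, by edgeR's interaction test at an adjusted p under 0.05 over all genes. Groups of 3 libraries are too small to test single samples for distance from their partners. The differences are log2 fold changes at 0.5% minus those at 2% glucose. Among mannoproteins they were 5.97 for SPI1, 4.42 for CWP1, 2.82 for SED1, 2.42 for TOS6, 2.20 for SRL1, 2.19 for CCW14, 1.75 for CCW12 and 1.29 for CWP2. TIR2 had 2.92, or 3.62 without 0.5%/7 mM replicate 2, and the PIR gene CIS3 2.60. Among the enzymes that extend or join glucan they were 3.12 for GAS1, 2.44 for GAS5, 2.69 for UTR2 and 1.93 for CRH1. Among glucanase-like genes they were 3.07 for SCW4, 2.28 for SUN4, 2.23 for EXG2, 1.94 for SCW10, 1.26 for TOS1 and 1.15 for SIM1. The synthases CHS1 and FKS1 had 2.59 and 1.76. The sign of each fold change itself was opposite at the 2 glucose levels, with both values called, for SPI1 and CCW14, but both falls at 2% glucose were lost when any 1 of the 6 libraries compared was left out, and that of CCW14 also under all 3 other scalings.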

How the results depend on the processing

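Of 146 called values of wall genes, 108 were called under every alternative and 38 were lost under 1 or more. None of the 146 changed sign, which says little, since a called value lies well away from 0. The counts of called wall genes ranged, over the fits that left out 1 library, from 16 to 29 for potassium restriction at 2% glucose (21 in the fit to all libraries), 22 to 30 for glucose restriction at 7 mM potassium (28), 26 to 31 for potassium restriction at 0.5% glucose (28), 17 to 27 for glucose restriction at 1 mM potassium (21), 25 to 28 for both restrictions (26) and 21 to 27 for the interaction (22). The 29 was reached without 0.5%/7 mM replicate 2, where 50.5% of all genes were called. In a fit to only the groups compared, potassium restriction at 2% glucose called 32, with 20 higher and 12 lower. That fit called 55.9% of all 6067 genes it tested, 1778 higher and 1612 lower, against 28.1% in the fit to all libraries. For glucose restriction at 7 mM potassium the fit to the groups compared called 19, and 24.9% of all genes. PST1 and TIP1 were lost in that alternative alone. TOS6 gave no value there. The interaction cannot be fitted to fewer groups. For TIP1 the interaction, not called with all libraries (-0.67), ran from -1.32 without 0.5%/7 mM replicate 3 to 3.60 without replicate 2, where it was called. The median level in the 2%/7 mM medium was 78.4 CPM per kb, and 74.8 with library totals. In windows of 300 bases SBF matches numbered 6 and Rlm1 matches 5. The cause of these shifts was not tested beyond the construction of each alternative.

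Replicate numbers are shared by the labels of all media. Of 18 pairs of libraries with the same number 4 correlated at over 0.1 (r from -0.40 to 0.36), and 0 of 12 libraries correlated best with their own number in every other medium. No pairing by number was seen, but a best match in every medium is a strict criterion and cannot exclude one. With a replicate block 20 wall genes were called for potassium at 2% glucose, 26 for glucose at 7 mM potassium, and 28, 21, 26 and 22 for potassium at 0.5% glucose, glucose at 1 mM, both restrictions and the interaction, and the calls of PIR1, TOS6 and DAN1 were lost in 1 comparison each.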
